A study of Mus musculus with 9 samples.

Results

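The Iroquois homeobox genes Irx1, Irx2, Irx3, Irx5 and Irx6 and the zinc-finger gene Zbtb16 were examined in sorted limb cells of mouse embryos. They were chosen by symbol, and all 6 were found among the 24102 rows of the expression table. The cells were dissociated from limbs at E12.5 (embryonic age in days) and sorted for GFP, and their RNA was sequenced. Control cells were Shox2(Cre/+);Rosa(mTmG), with Cre at 1 allele of Shox2 and a normal second allele. Mutant cells were Shox2(Cre/-);Rosa(mTmG), so their second allele of Shox2 was disrupted as well. The controls therefore lacked 1 normal Shox2 allele, and the mutants lacked both. Both groups carried the mTmG reporter, whose membrane label switches from red to green fluorescence once Cre has acted. The green cells are those that have expressed Cre from the Shox2 locus, together with their descendants. The labels list 3 controls and 4 mutants from 3 litters, plus 2 wild-type whole limbs, which were not analysed here. The table used here has 3 control and 3 mutant columns, 1 of each per litter. The litter 1 mutant column matches both mutant samples of that litter. The sources used here do not say how many embryos made up a column, so p-values measure only the spread between these columns. The comparison asks how these genes differ in Shox2-lineage cells when Shox2 is disrupted.

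Iroquois genes encode homeodomain transcription factors of the TALE class, and in the mouse they lie in a pair of clusters, with Irx1, Irx2 and Irx4 in the first and Irx3, Irx5 and Irx6 in the second. Irx3 and Irx5 are known to act together early in the limb bud, where the proximal and anterior skeleton of the hindlimb depends on them. Zbtb16, also called Plzf, encodes a BTB-domain zinc-finger repressor. It is known to act with Gli3 in forming the proximal limb skeleton. Shox2 encodes a homeodomain factor needed for the proximal limb bones.

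The Iroquois proteins bind DNA through a shared homeodomain, and the part of its coding sequence that encodes the recognition helix shows how alike the members are. These stretches of 48 bases were read from GENCODE release M21 transcripts (GRCm38), with capitals at the 40 bases shared by all 6 Iroquois genes.
Irx1: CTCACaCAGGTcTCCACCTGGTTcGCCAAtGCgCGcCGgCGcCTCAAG
Irx2: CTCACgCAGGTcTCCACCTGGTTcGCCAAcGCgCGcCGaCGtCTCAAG
Irx3: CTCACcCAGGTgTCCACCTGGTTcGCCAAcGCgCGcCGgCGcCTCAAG
Irx4: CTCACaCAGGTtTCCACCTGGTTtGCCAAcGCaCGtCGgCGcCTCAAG
Irx5: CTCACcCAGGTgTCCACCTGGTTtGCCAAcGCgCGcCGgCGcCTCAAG
Irx6: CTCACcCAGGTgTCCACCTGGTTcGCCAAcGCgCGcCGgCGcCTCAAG
The stretches encode 16 residues, and all 6 encode the same residues. Over a stretch of 63 residues that covers most of the homeodomain, Irx1 and Irx3 were 96.8% identical and Irx2 and Irx5 95.2%. Each of these pairs is nevertheless divided between the clusters. Irx3 and Irx5, neighbours in a cluster, were 87.3% identical. Stretches of 25 bases from a member that also occur in the transcripts of another gene could blur the counting of reads. They made up 1.07% of such stretches for Irx1, 1.55% for Irx2, 2.77% for Irx5 and 0.557% for Zbtb16. The shares were 7.24% for Irx3, which shares most with the antisense gene Irx3os, and 6.26% for Irx6, which shares most with the predicted gene Gm45505. Reads of Irx3 and of Irx3os cannot be told apart where the genes overlap, because no source used here says that the counting used strand. In the RefSeq gene table the predicted gene Gm20554 overlaps Irx2 and Gm32280 overlaps Zbtb16, so the same may hold there.

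Levels are given in FPKM, which scales reads by transcript length and library size, so they can be compared between genes. In the controls Irx3 was at 16.0 ± 6.07 FPKM (SD, n = 3), Irx5 at 13.9 ± 3.91 FPKM and Irx1 at 13.5 ± 4.99 FPKM. Irx2 followed at 4.15 ± 2.11 FPKM, Zbtb16 at 1.79 ± 0.669 FPKM and Irx6 at 0.364 ± 0.108 FPKM. The control ranges of Irx3, Irx5 and Irx1 overlap, so the order among these 3 genes lies within the spread between litters. Irx2 lay below those 3 genes in each of the 6 columns, and Irx6 lay below all other members in each. Irx2 and Zbtb16 do not overlap in the controls, with a lowest Irx2 level of 2.77 FPKM against a highest Zbtb16 level of 2.55 FPKM. In the mutants the 2 ranges do overlap. The remaining Iroquois gene, Irx4, was at 0.249 ± 0.199 FPKM in control cells and 0.118 ± 0.0713 FPKM in mutant cells. Shox2-lineage cells thus held 3 Iroquois transcripts at similar levels, 1 at a lower level and 2 that were barely detected.

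**Figure D1:**
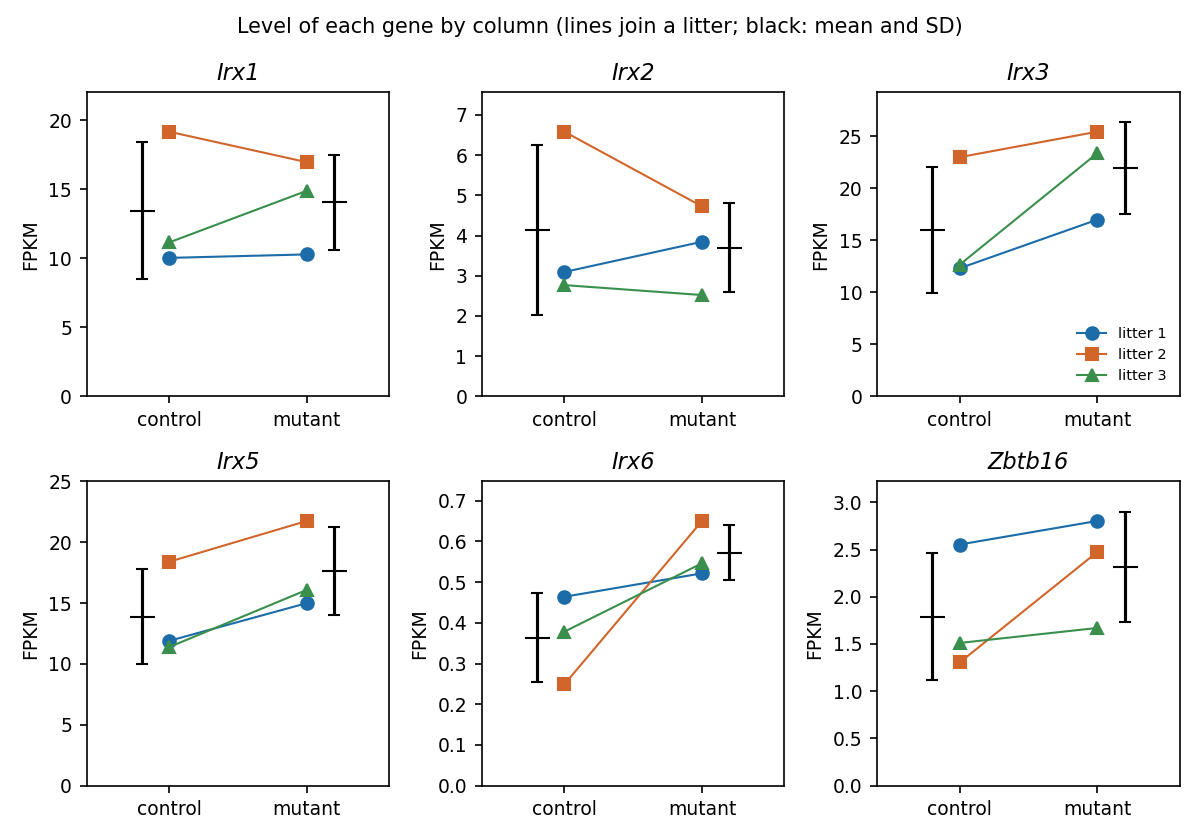
Level in FPKM (vertical axis, from 0) of each of the 6 genes in the control and mutant columns, with lines joining the columns of a litter and black marks for the mean and SD of 3 columns. Irx3, Irx5, Irx6 and Zbtb16 are higher in the mutant column of every litter, while Irx1 and Irx2 go in different directions between litters.

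The targeted gene was checked first. Shox2 was at 217, 222 and 210 FPKM in the controls of litters 1, 2 and 3 and at 16.7, 18.3 and 96.9 FPKM in the mutants. The mutant column of litter 3 thus kept more Shox2 transcript than the others. Its log2 difference was -2.75 (SE 0.64), which did not pass limma's test over all rows (adjusted p = 0.803). Without the litter 3 mutant column it was -3.56 and passed (limma adjusted p = 0.0120). The limb mesenchyme markers Prrx1 and Twist1 were at 155 ± 43.2 and 144 ± 33.5 FPKM in the controls. The forelimb factor Tbx5 was at 54.2 ± 1.28 FPKM, and the hindlimb factors Tbx4 and Pitx1 at 38.5 ± 7.23 and 163 ± 58.4 FPKM, so markers of both limb pairs were present. Of 7 such markers, Prrx1 was higher in the mutant of every litter, and Pitx1 and Twist2 were lower. Over the 12314 rows tested below, 1936 were higher and 2748 lower in every litter. Pitx1 in the mutants was at 81.7%, 73.1% and 92.0% of its control. Whether limb composition differed between groups was not tested.

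Mutants were compared with controls by limma on log2(FPKM + 1), in the 12314 rows that reached 1 FPKM in at least 3 columns. Of the 6 members 5 were tested, and Irx6 lay under this limit. None of the 5 passed the adjusted threshold, and limma called 0 of all 12314 rows, or 0%. At an unadjusted p under 0.05 limma also counted 0 members, against 272 higher rows, or 2.21% of all 12314, and 167 lower rows, or 1.36%. With litter as a block, which compares columns within litters, 2 members, Irx3 and Irx5, were higher at an unadjusted p under 0.05, against 5.34% of all rows. Again 0 rows passed after adjustment in that blocked limma fit. Of the 5 tested members 3, namely Irx3, Irx5 and Zbtb16, were higher in the mutant of every litter, against 15.7% of all tested rows. None of the 5 had mutant columns that all lay above the control columns, which was seen in 4.22% of tested rows.

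On the log2(FPKM + 1) scale Irx3 had the largest mean difference of the 6 genes. It was at 12.3, 23.0 and 12.7 FPKM in the controls of litters 1, 2 and 3, and at 17.0, 25.4 and 23.4 FPKM in the mutant columns. Each mutant column was above its own control, but the control of litter 2 lay above the mutant of litter 1, so the groups overlap. Irx3 in the mutants was 1.38, 1.11 and 1.85 times its control in the 3 litters. Shox2 in the same mutant columns was at 7.68%, 8.25% and 46.2% of its control. The largest Irx3 ratio thus fell in the litter whose mutant kept most Shox2, and any link was not tested. The log2 difference of Irx3 was 0.47 (SE 0.28, 95% interval -0.19 to 1.13, limma adjusted p = 1.00), and the exact two-sided permutation p was 0.2, where 3 columns against 3 can reach 0.1. Here and for the other members, the permutation moved columns between groups without regard to litter, although columns of a litter are alike. With litter as a block the interval was 0.11 to 0.82 (limma adjusted p = 0.347). Irx3 did not pass in the blocked fit without the litter 1 pair (0.49, limma adjusted p = 0.713) or the litter 3 pair (0.29, limma adjusted p = 0.614). Without the litter 2 pair its difference was 0.63 and passed (limma adjusted p = 0.000777), in a fit of 2 litters that called 534 rows in all.

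Irx5, the partner of Irx3 in early limb patterning, gave a similar picture with a smaller difference. Its levels were 11.9, 18.4 and 11.4 FPKM in control cells and 15.0, 21.7 and 16.1 FPKM in mutant cells. The litter 2 columns were the highest of their groups, as for Irx3, and the litter 2 control exceeded the mutants of both other litters. The ratios to control were 1.26, 1.18 and 1.41, which vary less between litters than those of Irx3. Irx5 had a log2 difference of 0.33 (SE 0.23, 95% interval -0.22 to 0.89, limma adjusted p = 1.00). The blocked interval was 0.08 to 0.59 (limma adjusted p = 0.361), and the exact two-sided permutation p was 0.3.

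Irx6, also in that cluster, was at 0.464, 0.249 and 0.378 FPKM in control cells and at 0.521, 0.650 and 0.546 FPKM in mutant cells. Irx6 in the mutants was 1.12, 2.61 and 1.44 times its control in litters 1, 2 and 3. All mutant columns lay above all control columns. Of 2202 rows that were under the limit of the test but above 0 in every column, 5.45% showed the same. The exact two-sided permutation p was 0.1, its lowest possible value, and in limma with no filter on low values the difference was 0.21 (adjusted p = 1.00). At such a level few reads support each value, and depth is unknown.

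Irx1, which has nearly the same homeodomain as Irx3, was at 10.03, 19.2 and 11.2 FPKM in control cells and 10.3, 17.0 and 14.9 FPKM in mutant cells. It was higher in 2 litters and lower in litter 2, where the control column was the highest of all 6. The log2 difference was 0.08 (SE 0.29, 95% interval -0.60 to 0.77, limma adjusted p = 1.00), and the exact two-sided permutation p was 0.9. Its sign changed without the litter 1 control (-0.08), the litter 3 control (-0.01), the litter 2 mutant (-0.06) or, with the block, the litter 3 pair (-0.07). Leaving out a single column keeps its litter in 1 group only, so differences between litters enter those values.

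Irx2, the least abundant of the 4 well-measured Iroquois genes, was at 3.09, 6.58 and 2.77 FPKM in control cells and 3.85, 4.73 and 2.52 FPKM in mutant cells. Only in litter 1 was the mutant above its control. The log2 difference was -0.09 (SE 0.32, 95% interval -0.85 to 0.68, limma adjusted p = 1.00), and the exact two-sided permutation p was 0.8. It was 0.23 without the litter 2 control, 0.11 without the litter 3 mutant, 0.07 in the blocked fit of litters 1 and 3, and 0.19 when columns were weighted, so its direction rested on single columns. Irx4, also in this cluster, was at 0.241, 0.451 and 0.0541 FPKM in control cells and 0.151, 0.167 and 0.0364 FPKM in mutant cells, lower in every litter at levels near 0.

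**Figure D2:**
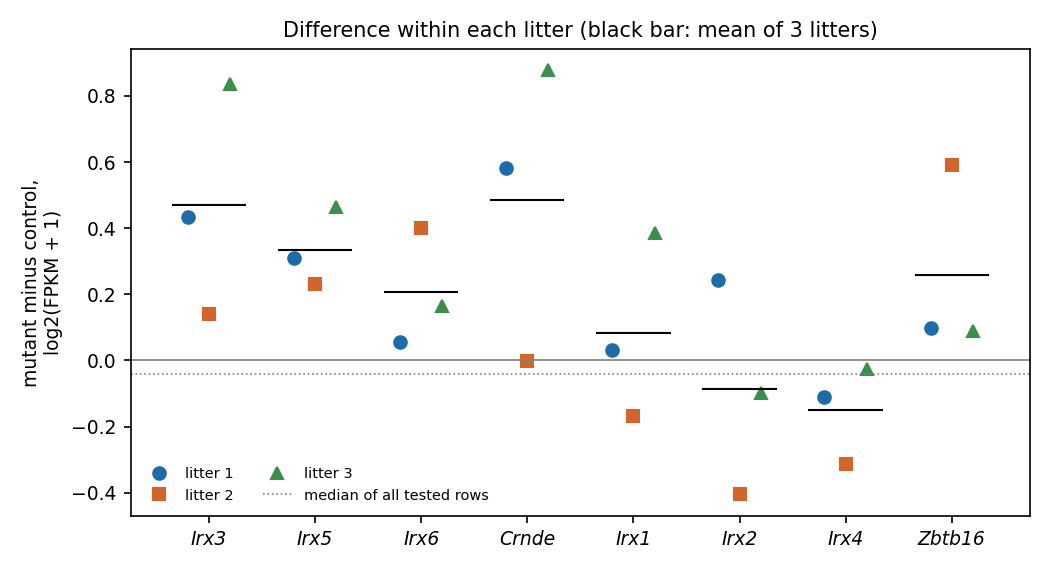
Difference between mutant and control within each litter on the log2(FPKM + 1) scale (vertical axis), for the second Iroquois cluster with the noncoding gene Crnde, the first cluster and Zbtb16. Points are litters, black bars their mean, and the dotted line is the median of all tested rows at -0.04. All 3 litters lie above 0 for Irx3, Irx5, Irx6 and Zbtb16.

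The make-up of the family within a column does not depend on how columns were scaled to each other. Irx3 held 32.4%, 33.9% and 33.0% of the summed Iroquois level in the controls of litters 1, 2 and 3, and 36.3%, 36.5% and 40.7% in the mutants. The share of Irx1 was 26.4%, 28.3% and 29.1% in the controls and 22.0%, 24.3% and 25.9% in the mutants. For Irx3 the mutant shares all lay above the control shares, and for Irx1 all lay below. Shares within a column are tied to each other, so these are not separate observations, and no test was run on them. Irx5 held 29.3% ± 2.09 (SD, n = 3) in the controls and 30.4% ± 2.14 in the mutants, which overlap.

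The level of Irx3 was 1.23, 1.20 and 1.13 times that of Irx1 in the controls and 1.65, 1.50 and 1.57 times in the mutants. The ratio of Irx5 to Irx1 was 1.19, 0.959 and 1.02 in the controls and 1.46, 1.28 and 1.08 in the mutants, higher in each litter with overlapping groups. Summed, Irx3 and Irx5 stood to Irx1 and Irx2 at 1.84, 1.61 and 1.73 in the controls and at 2.26, 2.17 and 2.26 in the mutants. The means were 1.73 ± 0.119 and 2.23 ± 0.0513 (SD, n = 3), so the groups were farther apart than the columns of either group. These ratios were chosen after the levels had been seen, and no test was run on them.

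**Figure D3:**
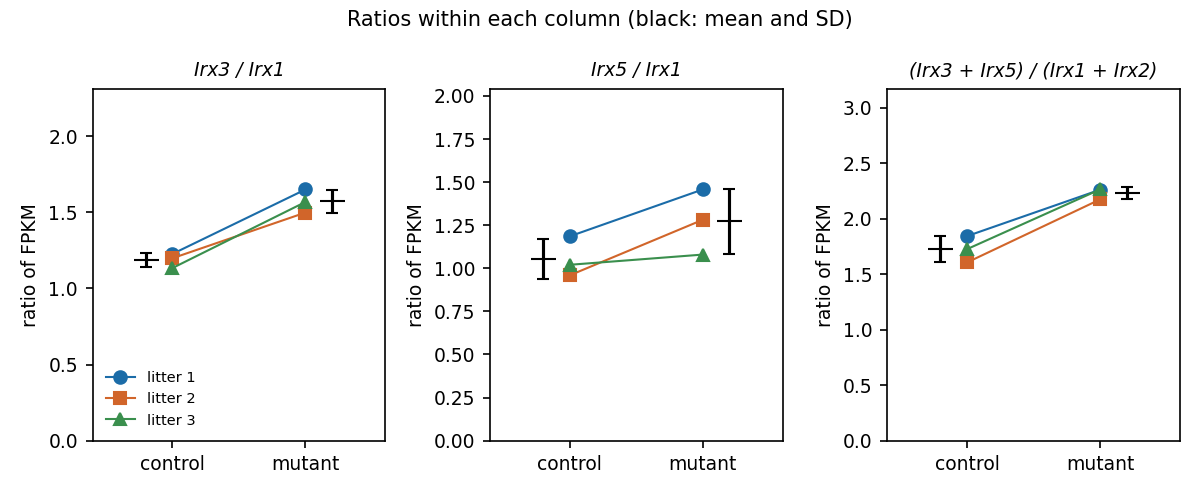
Ratio of FPKM within each column (vertical axes, from 0) for Irx3 to Irx1, Irx5 to Irx1, and the sum of Irx3 and Irx5 to the sum of Irx1 and Irx2. Lines join the columns of a litter, and black marks show the mean and SD of 3 columns. Mutant columns sit above all control columns in the left and right panels.

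Neighbouring genes were taken from the RefSeq gene table of GRCm38.p6, as the nearest on each side with a row in the expression table. Crnde, a long noncoding gene beside Irx5, was at 1.78, 2.84 and 1.90 FPKM in control cells and 3.15, 2.84 and 4.34 FPKM in mutant cells. It was thus higher in litters 1 and 3 and level in litter 2, with a log2 difference of 0.49 (SE 0.21, limma adjusted p = 1.00). Crnde did not pass with the block over all litters (limma adjusted p = 0.408), nor without the litter 1 pair (0.713) or the litter 3 pair (0.712). It passed without the litter 2 pair (limma adjusted p = 0.000452), among the 534 rows called in that fit. Fto, on the far side of Irx3, is known for enhancers that act on Irx3. It was at 33.3, 57.8 and 57.5 FPKM in control cells and 31.9, 65.5 and 59.8 FPKM in mutant cells, with log2 differences of -0.06, 0.18 and 0.05 in litters 1, 2 and 3. The matrix protease gene Mmp2, beyond Irx6, was at 126 ± 10.1 and 132 ± 30.6 FPKM. Around the other cluster, the predicted gene Gm20554, which overlaps Irx2, was at 0.422 ± 0.298 and 0.414 ± 0.134 FPKM. Mir466f-4 and D730050B12Rik were listed at 0 in all columns.

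The promoter table of RefSeq (GRCm38.p6) held 2 of the 6 members, Irx2 and Irx3. That of Irx3 is printed because Irx3 had the largest difference, at chr8:91801605-91801904 on the minus strand, from 250 bases before to 50 after the start, with CG pairs in capitals.
Irx3: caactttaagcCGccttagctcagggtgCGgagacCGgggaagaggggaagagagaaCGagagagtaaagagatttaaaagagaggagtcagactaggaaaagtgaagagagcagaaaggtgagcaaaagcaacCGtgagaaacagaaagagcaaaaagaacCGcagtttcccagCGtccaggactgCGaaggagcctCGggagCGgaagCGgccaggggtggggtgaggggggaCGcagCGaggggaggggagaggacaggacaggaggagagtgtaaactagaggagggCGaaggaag
Its 300 bases were 56% G and C with 14 CG pairs, and those of Irx2 were 69% with 25 CG pairs, against a median of 52.67% and 7 over 32851 promoters. Searches covered both strands for the homeodomain motif TAATTA, for the paired-type palindrome of TAAT and ATTA with 3 bases between them, and for the Iroquois motif ACANNTGT. Both promoters held 0 matches, and in all promoters the motifs occurred in 5.29%, 0.487% and 7.38%. The letters are absent from this window only.

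Zbtb16 was at 2.55, 1.30 and 1.51 FPKM in control cells and 2.80, 2.47 and 1.67 FPKM in mutant cells. The mutant was higher in every litter, by 1.10, 1.90 and 1.11 times, so most of the mean difference came from litter 2. The control of litter 1 lay above both other mutants. The log2 difference was 0.26 (SE 0.23, 95% interval -0.29 to 0.81, limma adjusted p = 1.00), and the exact two-sided permutation p was 0.3. With the block and without the litter 2 pair it was 0.09 (limma adjusted p = 0.851). Of the members only Zbtb16 stands in the authors' deposited list of direct Shox2-repressed genes. The sources used here do not say how that list was made, and it may rest on these samples.

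Its neighbours had lower levels in the mutant of every litter, as did 2748 of the 12314 tested rows. Nnmt, which encodes nicotinamide N-methyltransferase, was at 1.28, 1.23 and 2.02 FPKM in control cells and 0.814, 0.548 and 1.01 FPKM in mutant cells, with no overlap (log2 difference -0.48, limma adjusted p = 1.00). How many tested rows had no overlap in this direction was not counted. The serotonin receptor gene Htr3a was at 0.840 ± 0.598 and 0.271 ± 0.0307 FPKM, under the limit of the test. Of the listed partners of Zbtb16, the polycomb gene Bmi1 was at 21.1 ± 2.87 and 24.9 ± 1.90 FPKM. The BTB zinc-finger gene Zbtb7a was at 5.11 ± 0.763 FPKM in controls against 3.66 ± 0.440 FPKM, and Bcl6 at 1.92 ± 0.583 FPKM against 1.33 ± 0.464 FPKM. Of 12 tested partners, 0 were higher and 1, Zbtb7a, lower at an unadjusted p under 0.05, against 2.21% and 1.36% of all rows, and 0 passed after adjustment in limma. Their median log2 difference was -0.06, against -0.04 over all tested rows, and it was above 0 without the litter 2 control (0.00322) or the litter 3 control (0.0416).

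Rows with a pattern most like a member over the 6 columns were sought by Pearson's r on log2(FPKM + 1), among tested rows averaging at least 2 FPKM. For Irx3 they were the actin-binding gene Tagln (r = 0.989) and the matrix gene Sparcl1 (r = 0.987). For Irx5 they were Sparcl1 (r = 0.983) and the kinase gene Stk39 (r = 0.978). Clu and Rtn4r were most like Irx1 (r = 0.988 and 0.986), Klf7 and Idi1 most like Irx2 (r = 0.989 and 0.988), and Jade3 and Dennd2c most like Zbtb16 (r = 0.988 and 0.986). Tagln was at 6.48, 11.4 and 6.33 FPKM in control cells and 7.82, 13.3 and 11.8 FPKM in mutant cells, with litter 2 highest in both groups, as for Irx3. Among the members, Irx3 and Irx5 correlated at 0.946, Irx1 and Irx3 at 0.870 and Irx1 and Irx2 at 0.653, while Irx3 and Zbtb16 were at -0.18. The 6 columns share litters and genotypes, so these are descriptions.

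Other limb patterning genes were listed by position of action. None passed limma's adjusted threshold, with or without the block. At p under 0.05 before adjustment, the counts in each list below stand against 2.21% of all rows higher and 1.36% lower. Of 17 tested proximal factors, 2 were higher and 0 lower at p under 0.05 before adjustment, with a median log2 difference of 0.14. This median was -0.0189 without the litter 1 control, 0.0142 without the litter 2 mutant and 0.0239 without the litter 3 mutant. Only the first of these changed its sign. In the blocked fit it was 0.0760, 0.175 and 0.0815 without the litter 1, 2 and 3 pairs. The proximal factors include Rarb, a retinoic acid receptor, at 12.1 ± 2.32 FPKM in control cells and 17.4 ± 1.38 FPKM in mutant cells, and Hoxd10 at 21.1 ± 3.40 and 28.5 ± 2.97 FPKM. Cyp26b1 was counted in this list too, although it encodes an enzyme that clears retinoic acid and is not itself a factor of proximal identity. It was at 16.6 ± 1.85 and 24.5 ± 6.71 FPKM. With the block, 4 of the 17, Cyp26b1 among them, were higher at p under 0.05 before adjustment, and 3 were lower. Over all rows the shares were 5.34% and 6.29%.

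Anterior limb and scapula factors had a median of 0.35 over 13 tested genes, with 4 higher and 1 lower at p under 0.05 before adjustment. The homeobox gene Alx1 was at 1.68 ± 0.780 FPKM in control cells and 5.02 ± 0.632 FPKM in mutant cells, higher in each litter (limma adjusted p = 0.670). Pax9, a paired-box factor, was at 1.10 ± 0.274 and 2.54 ± 0.326 FPKM, and Etv4, an ETS factor downstream of FGF, at 18.6 ± 2.13 and 10.4 ± 2.84 FPKM. Restricted to rows averaging at least 5 FPKM, this median was -0.07, and with 1 column left out it ran from 0.17, without the litter 1 control, to 0.45. Alx1 and Pax9 were thus among the low-level genes with larger log2 differences than any member.

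Posterior limb and hedgehog response genes had a median of -0.12 over 14 tested genes, with 2 higher and 2 lower at p under 0.05 before adjustment. The hedgehog receptor gene Ptch1 was at 23.1 ± 1.72 FPKM in controls against 15.4 ± 2.46 FPKM in mutants. Hoxd11 was at 18.5 ± 1.72 and 25.4 ± 2.51 FPKM. Without the litter 1 mutant the median was 0.0221, and with any other column left out it was below 0. Distal factors had a median of 0.34 over 8 tested genes, with 3 higher and 0 lower at p under 0.05 before adjustment. These 3 were the zinc-finger gene Sall1, at 2.42 ± 0.209 and 7.20 ± 1.63 FPKM, the LIM homeobox gene Lhx9, at 8.88 ± 1.11 and 14.5 ± 0.163 FPKM, and Hoxa11, at 19.9 ± 1.02 and 27.4 ± 5.35 FPKM. The distal median was 0.0242 without the litter 1 control, 0.16 without the litter 3 mutant, 0.20 without the litter 2 mutant and 0.58 without the litter 1 mutant.

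Skeletal genes were listed because Irx3 and Irx5 are also active in cartilage and bone. Genes of hypertrophic chondrocytes and osteoblasts had a median of -0.92 over 7 tested genes, with 0 higher and 4 lower at p under 0.05 before adjustment. Panx3, a channel gene of these cells, was at 2.28 ± 0.786 and 0.195 ± 0.122 FPKM, the osteoblast factor Sp7 at 4.78 ± 1.37 and 1.54 ± 0.612 FPKM, and Alpl at 4.80 ± 2.74 and 1.14 ± 0.0935 FPKM. The median was -0.55 without the litter 1 mutant, -0.53 in rows averaging at least 5 FPKM and -0.36 with no filter on low values, below 0 in each. Of the 12 chondrocyte genes 2, Sox5 and Sox6, were higher and 1, Comp, lower at an unadjusted p under 0.05, against 2.21% and 1.36% of all rows. Their median was 0.18, and 0.0214 without the litter 2 mutant. Sox5 was at 6.13 ± 0.852 and 11.0 ± 1.45 FPKM, Sox6 at 7.72 ± 0.644 and 10.2 ± 0.936 FPKM, and the matrix gene Comp at 3.96 ± 1.73 and 1.72 ± 0.562 FPKM.

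**Figure D4:**
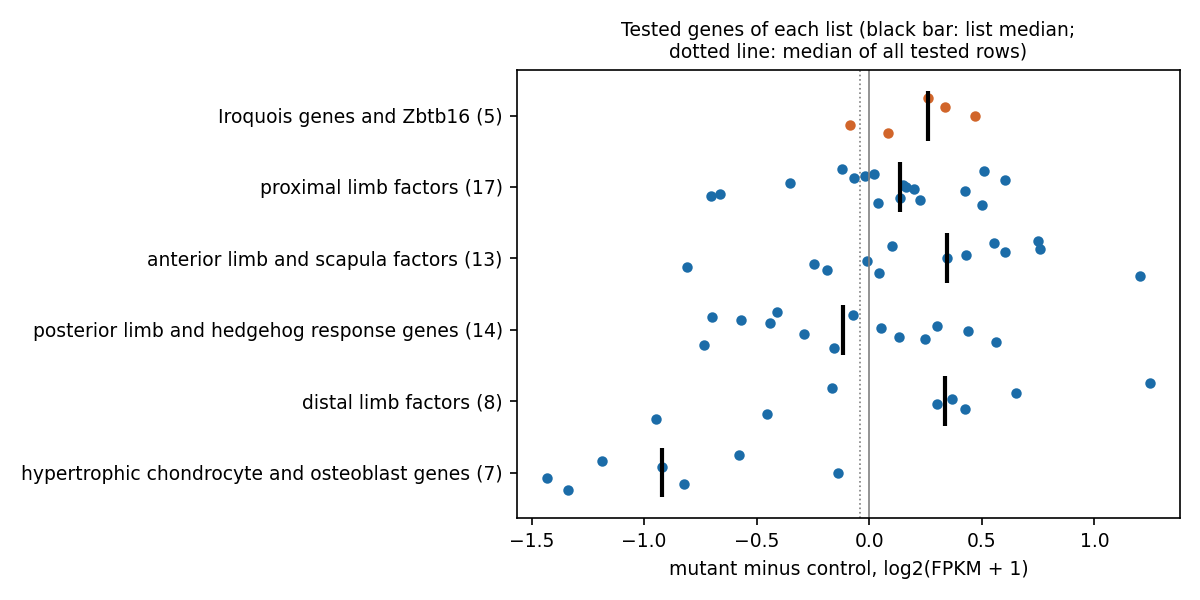
Difference between mutants and controls on the log2(FPKM + 1) scale (horizontal axis) for each tested gene of 6 lists, with the number tested in brackets. Points are genes, black bars list medians, and the dotted line is the median of all tested rows. The 5 tested members lie between -0.09 and 0.47, inside the spread of the other limb lists.

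The litter 2 control had the highest Irx1, Irx2, Irx3 and Irx5 levels of the controls. It also had the highest summed levels of limb mesenchyme markers and of markers of several other cell types. Limb mesenchyme markers summed to 560, 892 and 689 FPKM in the controls of litters 1, 2 and 3, and to 507 to 843 FPKM in the mutants. Muscle markers summed to 31.3 to 80.9 FPKM in the controls and 50.6 to 52.4 FPKM in the mutants. Surface ectoderm markers summed to 17.5 to 40.0 and 15.1 to 20.1 FPKM, and endothelial markers to 17.3 to 26.1 and 12.7 to 15.7 FPKM. Nerve and glia markers summed to 24.2 to 80.0 and 36.3 to 97.5 FPKM, and blood cell markers to 347 to 607 and 242 to 733 FPKM. All 10 muscle, 10 ectoderm, 10 endothelial and 11 nerve and glia markers were above 0 in every column, while Ptprc and Tyrobp, of leukocytes, were at 0 in at least 1 column. The Y-linked gene Eif2s3y was at 0 in the litter 2 mutant and at 23.9 FPKM in its control, and Xist, expressed from the inactive X chromosome, was at 178 and 34.6 FPKM in the same columns. The litter 1 mutant had 36.8 FPKM of Xist against 12.1 FPKM in its control, and the litter 3 mutant 68.4 FPKM against 73.0 FPKM. Eif2s3y was at 22.4 and 21.6 FPKM in the litter 1 mutant and control, and at 14.4 and 16.2 FPKM in those of litter 3. Sex composition and genotype therefore cannot be told apart in litter 2. In litter 1 only Xist differed, and sex composition there was not tested. The part of these differences in the Iroquois and Zbtb16 values was not tested. In such bulk samples a lower share of cells of a type and less RNA per cell cannot be told apart.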

How the data were processed

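The authors used TopHat and Cuffdiff with the mm9 genome, per the submitters' processing notes. The sources used here give no versions, annotation or filters. The deposited values were taken as FPKM, the unit that Cuffdiff writes, because they are decimals from 0 upward and the header names none. Per the file headers, Cuffdiff's geometric normalisation was stated for each litter, so the litters may have been scaled separately. Column sums ran from 347708 to 439109 FPKM, and the sequencing depth is unknown. Nothing in the labels says whether the libraries kept strand.

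Mutant and control columns were compared with limma 3.58.1 in R 4.3.3 (intensity trend, two-sided) on log2(FPKM + 1), which understates the change of low genes. Rows entered at 1 FPKM or more in at least 3 columns, and p-values were adjusted by Benjamini-Hochberg over 12314 rows with a threshold of 0.05. The script was tested on simulated data with independent columns, a limited spread and no litter effect, so that test does not cover columns paired by litter. Litter numbers mark litters in the labels, and the deviations from the group means correlated at 0.873, 0.568 and 0.770 between same-litter columns, so litter as a replicate block was run as a second fit.

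The members and lists were chosen with earlier results of these data known, so lists are given by counts and medians with no test. Named genes were the members, Shox2, Irx4, listed noncoding genes, neighbours, the 2 most alike rows per member and up to 3 genes per limb list with the smallest p. Limb mesenchyme, sex and marker genes were named besides. A gene that this rule selected is not reported here. Rows carry no coordinates, since the reference tables are of GRCm38 and not mm9. Python 3.11.15 and Biopython 1.88 were used for sequences, with open reading frames taken as the longest per gene. A comparison of whole proteins had been planned, and the homeobox of the transcripts was used in its place. Alternatives were other pseudocounts, filters and scalings, column weights, no trend, the block, and leaving out columns or litters. Fits without a single column had no block and were unbalanced for litter.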

Additional observations from a re-analysis of the deposited data

How the results depend on the processing

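Irx3, Irx5, Irx6 and Zbtb16 were higher in the mutants under every alternative run for them, with log2 differences of 0.29 to 0.80 for Irx3, 0.18 to 0.60 for Irx5, 0.15 to 0.26 for Irx6 and 0.09 to 0.45 for Zbtb16. Only Irx3 passed in any of them, with the replicate block and without the litter 2 pair (0.63, limma adjusted p = 0.000777), and otherwise these genes did not pass. Irx1 ran from -0.0843 to 0.39 and Irx2 from -0.27 to 0.23. Irx1 ran from -0.0843 to 0.35 with 1 column left out; Irx1 was below 0 without the litter 1 control, the litter 3 control (-0.01) or the litter 2 mutant (-0.06), and at -0.0672 with the replicate block without the litter 3 pair. Irx2, otherwise below 0, was above it without the litter 2 control (0.23) or the litter 3 mutant (0.11), with column weights (0.19), and with the replicate block without the litter 2 pair (0.0727). The cause was not tested.

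Over all rows limma called 0 genes in the main setting and with the replicate block, where 439 and 1433 rows had an unadjusted p under 0.05. Column weights gave 15 calls. Leaving out 1 column gave 0 to 1 calls, and the replicate block gave 0, 534 and 36 calls without the litter 1, 2 and 3 pairs. Such fits keep 2 litters. Shox2 ran from -3.56 to -2.32 with 1 column left out, and it passed without the litter 3 mutant (-3.56), and with the replicate block without the litter 2 pair (-2.37) or the litter 3 pair (-3.58). With all 3 litters the block changed no call. The difference between groups in the ratio of Irx3 and Irx5 to Irx1 and Irx2 was 0.508, and 0.449 to 0.567 with 1 column left out. The median of all rows ran from -0.07 to 0.01. The fit with the block and no filter was added after the data were seen. Unknown depth limits what Irx4 and Irx6 can show.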
